A study of Caenorhabditis elegans with 6 samples.

Results

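The cyp-34A genes of the nematode *Caenorhabditis elegans* are a subfamily of cytochrome P450 genes, and 9 of them were described here out of 46778 genes in the deposited table. They were chosen by name: *cyp-34A1*, *cyp-34A2* and *cyp-34A4* to *cyp-34A10*, all of which were present. The choice was made with the difference between treated and control animals already known, in particular that of *cyp-34A9* and *cyp-34A10*. Differences between the groups are therefore given for these genes as a description. Calls of the fit over all genes that fall on them are counted beside the share of all genes called, and are not evidence of a difference. A further gene of the same name series, *cyp-34A3*, was not on the list. It is annotated as a pseudogene and was listed at 0 or 0.03 TPM in every library.

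The study sequenced total RNA from 6 libraries, 3 labelled control and 3 labelled JM03. JM03 is named in the series title as a crotamiton derivative; crotamiton is a drug used against scabies mites. The title connects the compound with lifespan, stress resistance and the channel protein OSM-9. The labels state no strain, sex, stage, dose, vehicle or exposure time, and they do not say whether replicates came from separate cultures, so spread between replicates may be technical. Values are TPM, each gene's share of all transcripts after scaling for gene length, on a fixed total per library, which allows levels to be set side by side between genes. The read depth behind a TPM value is unknown. In RNA from many cells together, fewer cells of a type and less RNA per cell cannot be told apart.

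Cytochrome P450s are haem enzymes that insert oxygen into foreign compounds and into lipids. Most animal P450s sit in the membrane of the endoplasmic reticulum and receive their electrons from a reductase, in the worm EMB-8, with cytochrome b5 as an additional donor. The worm families CYP-33, CYP-34 and CYP-35 belong to the group of P450s that resembles the mammalian CYP2 family, and genes of such families are known for induction by foreign compounds. The intestine is the main tissue of foreign compound metabolism in the worm. Substrates of the individual CYP-34A enzymes are not assigned here.

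All 9 genes lie on chromosome V (WBcel235 coordinates, Ensembl annotation). A run of 6, *cyp-34A5* to *cyp-34A10*, occupies V:3955701-3972991, a stretch of 17291 bases, in numerical order and on the minus strand, with no other protein-coding gene between them. The gaps in the run are 451, 345, 981, 310 and 161 bases, the shortest being that between *cyp-34A9* (WBGene00015044, V:3968134-3970540) and *cyp-34A10* (WBGene00015045, V:3970702-3972991). On the minus strand *cyp-34A10* comes first, so its end faces the start of *cyp-34A9*. *cyp-34A4* (WBGene00020386, V:3950023-3952097) lies on the plus strand just outside the run and is separated from it by the chemoreceptor gene *str-247*. The annotation now names this gene *dach-1*; the symbol of the deposited table is kept here. *cyp-34A1* and *cyp-34A2* form a separate tandem pair on the minus strand, 11.3 Mb away, at V:15285556-15287956 and V:15288777-15291095.

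The genes are of similar size, with 1571 to 1766 nt of exonic sequence. *cyp-34A9* has 4 annotated transcripts, *cyp-34A6* has 3 and the others have 1 each. In 8 of the 9 a short non-coding RNA gene is annotated on the opposite strand within the gene body. All of these non-coding genes were listed at 0 in all libraries. Reads of similar tandem copies can be divided between them, so the values of neighbouring members may not be fully independent. How alike the sequences of the members are was not examined.

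*cyp-34A9* had the highest level of the subfamily in every library. Control replicates 1, 2 and 3 held 15.15, 14.65 and 25.20 TPM, and JM03 replicates 1, 2 and 3 held 72.02, 81.10 and 59.55 TPM. The lowest JM03 library was more than 30 TPM above the highest control, and the groups did not overlap. The means were 70.9 ± 10.8 against 18.3 ± 5.95 TPM (SD, n = 3 each), a ratio of 3.87. The difference in log2(TPM + 1) was 1.93 ± 0.342 (SE); the added 1 shrinks differences between low values.

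*cyp-34A10*, directly upstream of it, was close to the lower limit of the table in controls. It was listed at 0.32, 0.32 and 0.04 TPM there and at 19.25, 23.05 and 13.59 TPM in JM03. No JM03 library came near a control library. The ratio of the means was 82.2, a figure that rests on control values between 0.04 and 0.32 TPM. The log2 difference was 3.98 ± 0.297 (SE).

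The remaining members differed less. *cyp-34A7* was listed at 0.47, 0.52 and 0.09 TPM in controls and at 2.00, 2.50 and 1.12 TPM in JM03, a log2 difference of 1.06 ± 0.265 (SE). All JM03 values lay above the controls, although all were low. *cyp-34A2*, in the distant pair, had 8.95, 4.20 and 5.27 TPM in controls and 12.76, 10.10 and 9.90 TPM in JM03, a log2 difference of 0.79 ± 0.339 (SE). The groups were again apart, but the lowest JM03 library exceeded control replicate 1 by about 1 TPM.

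*cyp-34A8* had 2.73, 1.64 and 2.06 TPM in controls and 3.97, 4.23 and 3.79 TPM in JM03 (log2 difference 0.68 ± 0.251 SE). *cyp-34A4* had 5.04, 5.14 and 3.94 TPM in controls and 7.53, 7.96 and 5.79 TPM in JM03 (0.50 ± 0.275 SE). *cyp-34A5* had 1.03, 1.02 and 0.36 TPM in controls and 1.66, 1.41 and 1.42 TPM in JM03 (0.49 ± 0.234 SE). In each of these genes the groups did not overlap, and the ratio of means was 1.86, 1.51 and 1.86 respectively.

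The other two members did not share this pattern. *cyp-34A6*, in the middle of the run, was listed at 0.78, 0.77 and 0.10 TPM in controls and at 0.41, 0.52 and 0.37 TPM in JM03. Control replicates 1 and 2 lay above all JM03 libraries and control replicate 3 below them. *cyp-34A1* was listed at 0.05, 0.08 and 0 TPM in controls and at 0.02, 0.03 and 0.31 TPM in JM03, with overlapping groups. Its tandem neighbour *cyp-34A2* was among the higher members in both groups, so the genes of that pair were far apart in level.

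**Figure D1:**
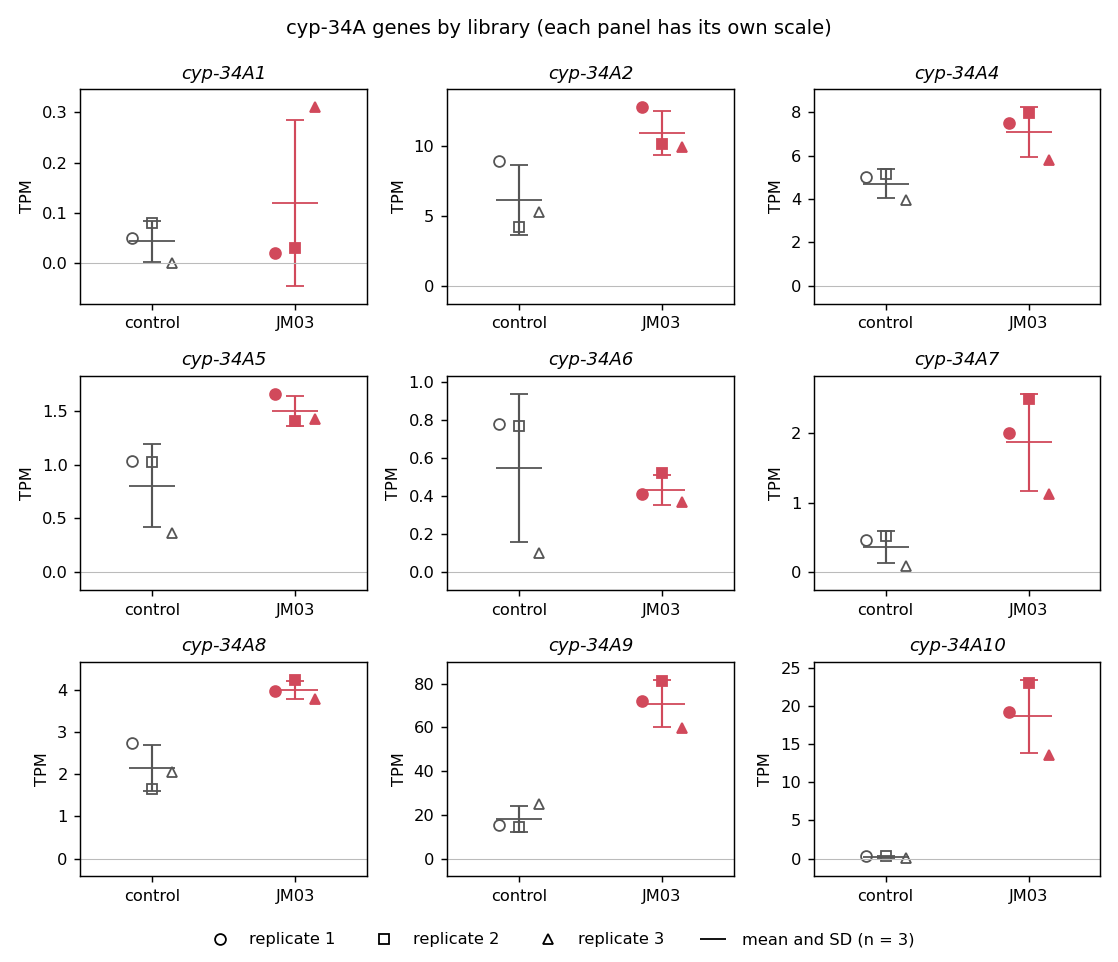
TPM of each cyp-34A gene in the 3 control (open) and 3 JM03 (filled) libraries, with the group mean and SD; each panel has its own linear scale. JM03 values lie above all controls for 7 genes, with *cyp-34A10* between 13.59 and 23.05 TPM against at most 0.32 TPM, and the groups overlap for *cyp-34A1* and *cyp-34A6*.

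In all, JM03 libraries lay above all controls in 7 of the 9 genes, the same 7 that passed the filter on low values. The same was true of 21.9% of the 12912 genes that passed this filter, at least 1 TPM in at least 3 libraries. *cyp-34A7* and *cyp-34A10* passed it through their JM03 values alone, so a difference was built into their passing. *cyp-34A5*, at 0.36 TPM in control replicate 3, also needed JM03 libraries to pass. *cyp-34A1* and *cyp-34A6* did not pass. The median log2 difference over the 7 was 0.79, beside 0.35 over all 12912 genes, of which 72.7% had a positive difference. In the limma fit over all genes, with a Benjamini-Hochberg adjusted p below 0.05 as the threshold, 1 member was called higher, *cyp-34A10*, where 0.0929% of all genes were. Since the genes were picked with this contrast known, nothing is read from these counts. A log2 difference at least that of *cyp-34A9* was found in 0.41% of the genes and one at least that of *cyp-34A10* in 0.031%.

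One control library, replicate 3, was unlike the rest. It had 16560 genes above 0, against 18049 to 18208 in the others, and it was the lowest control in 72.1% of the tested genes. It was also the lowest control in 6 of the 9 cyp-34A genes, but the highest for *cyp-34A9*. Without it, the log2 difference of *cyp-34A9* was 2.17 and that of *cyp-34A10* 3.86. Those of the other tested members then ran from 0.30 for *cyp-34A5*, against 0.49 with all libraries, to 0.91 for *cyp-34A7*. The median over the 7 tested members was 0.72, beside 0.05 over all genes. JM03 lay above every control in the 7 members, so leaving out control replicate 3 could not undo this. Of all tested genes, 23.7% had JM03 above control replicates 1 and 2. The members called higher in that fit were *cyp-34A9* and *cyp-34A10* (limma, adjusted p below 0.05), where 0.0774% of all genes were. These are the genes the choice was made for, *cyp-34A10* passed the filter through JM03 alone, and nothing is read from these calls either. *cyp-34A10* was not called without control replicate 2 or without JM03 replicate 1.

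The order of the levels differed between the groups mainly through *cyp-34A10*. In controls the order of mean TPM was *cyp-34A9*, *cyp-34A2*, *cyp-34A4*, *cyp-34A8*, *cyp-34A5*, *cyp-34A6*, *cyp-34A7*, *cyp-34A10* and *cyp-34A1*. The ranges of *cyp-34A2* and *cyp-34A4* overlapped there, as did those of each neighbouring pair from *cyp-34A5* downwards. In JM03 *cyp-34A10* stood second, at 18.6 ± 4.76 TPM, its lowest library above the highest *cyp-34A2* value. *cyp-34A7* moved past *cyp-34A5* and *cyp-34A6*, although its range overlapped that of *cyp-34A5*. The other neighbours in the JM03 order had separate ranges.

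Within each library, the ratio of *cyp-34A9* to *cyp-34A10* TPM was 47.3, 45.8 and 630 in control libraries and 3.74, 3.52 and 4.38 in treated ones. The ratio thus ran from 3.52 to 4.38 among JM03 libraries and was far higher in all controls. The value of 630 in control replicate 3 divides by 0.04 TPM, and rounding of the table to 2 decimals alone allows 560 to 720 there. In control replicates 1 and 2 the same rounding allows 45.1 to 48.1.

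Together the 9 genes reached 34.5, 28.3 and 37.1 TPM in control libraries and 119.6, 130.9 and 95.8 TPM under JM03. The mean sum was 33.3 ± 4.49 TPM in controls and 115.5 ± 17.9 TPM in JM03 (SD, n = 3 each), a difference of 82.2 TPM. *cyp-34A9* made up 64.0% of that difference, *cyp-34A10* 22.4% and the other 7 genes 13.6%. *cyp-34A10* held 0.93%, 1.13% and 0.11% of the subfamily's TPM in control libraries and 16.1%, 17.6% and 14.2% in treated ones. The share of *cyp-34A9* was between 43.9% and 68% in the controls and between 60.2% and 62.1% in JM03, so that the groups overlapped. The other 7 genes together summed to 11.8 to 19.1 TPM in controls and 22.7 to 28.4 TPM in JM03.

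**Figure D2:**
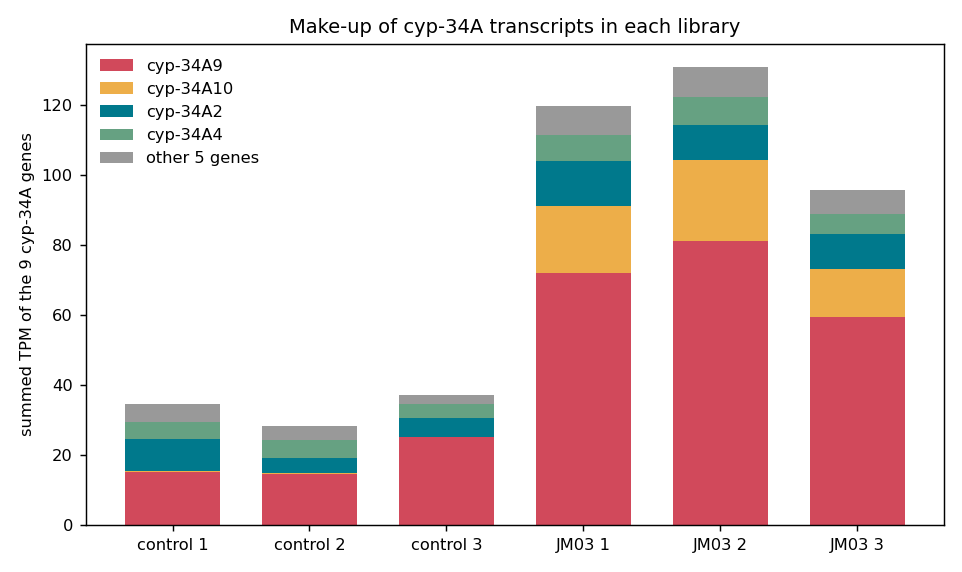
Summed TPM of the 9 cyp-34A genes in each library, stacked by gene. The controls reach 28.3 to 37.1 TPM and the JM03 libraries 95.8 to 130.9 TPM, with *cyp-34A10* visible only in JM03.

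The subfamily was also placed among all 81 P450 genes of the table. *cyp-34A9* ranked 7, 6 and 1 by TPM among them in control replicates 1, 2 and 3, and 3, 2 and 3 in JM03. *cyp-34A10* ranked 56, 50 and 60 in control libraries and 9, 8 and 11 in treated ones. All 81 genes summed to 430.9, 343.7 and 209.7 TPM in control libraries and to 747.2, 721.1 and 644.5 TPM in treated ones. The cyp-34A genes held 8.01%, 8.25% and 17.7% of this in the controls, and JM03 libraries 16.01%, 18.2% and 14.9%. Control replicate 3, whose P450 sum was the lowest, thus fell among the JM03 libraries in this share. Of the 376.2 TPM by which the mean P450 sum differed between groups, the 9 genes supplied 21.8%.

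Along the chromosome, the size of the difference did not follow gene order evenly. From the far end of the run to its first gene on the minus strand, the log2 differences were 0.49 for *cyp-34A5*, none tested for *cyp-34A6*, 1.06 for *cyp-34A7*, 0.68 for *cyp-34A8*, 1.93 for *cyp-34A9* and 3.98 for *cyp-34A10*. Beyond *cyp-34A10* the next protein-coding gene, *str-82*, a chemoreceptor gene on the opposite strand and 1669 bases away, was listed at 0 in all libraries. So was *str-247* at the other end of the run. Of the genes flanking the distant pair, *srx-51* had at most 0.30 TPM and *str-96* at most 0.08 TPM in any library.

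On the far side of *cyp-34A4* lies a run of P450 genes of the cyp-35 subfamilies on the plus strand. The nearest, *cyp-35B3*, was listed at 0 in all JM03 libraries and at no more than 0.05 TPM in controls. *cyp-35B1* and *cyp-35A5*, farther out and chosen here after their values were seen, had log2 differences of 1.53 and 2.41. The nlp genes on the other side of the cyp-34A run, which encode neuropeptide-like proteins including epidermal antimicrobial peptides, were also looked at after the fact. In these 6 genes, *nlp-27* to *nlp-31* and *nlp-34*, the groups overlapped and the log2 differences ran from -0.50 to 0.37. Whether the cyp-34A run differs from its surroundings was not tested.

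**Figure D3:**
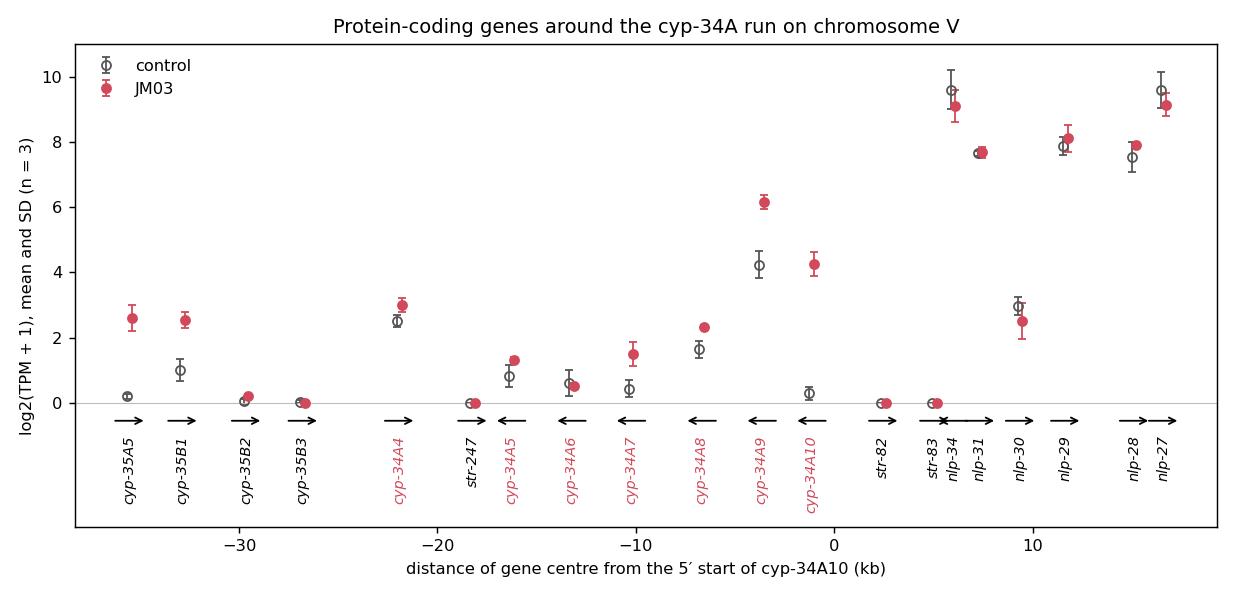
Mean log2(TPM + 1) with SD over 3 libraries in control (open) and JM03 (filled), against the distance of each protein-coding gene from the 5′ start of *cyp-34A10*; arrows give the strand and cyp-34A names are coloured. The widest separation among the cyp-34A genes is at *cyp-34A10*, while the nlp genes to its right overlap between groups.

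The replicates within JM03 varied together in several members. JM03 replicate 3 was the lowest JM03 library in 6 of the 7 tested members, beside 39.7% of all tested genes, and the order replicate 2, replicate 1, replicate 3 from high to low was seen in 5 of the 7, beside 25.6%. Of the members below the filter, *cyp-34A6* had that order and *cyp-34A1* did not. The ratio of JM03 replicate 3 to replicate 2 was 0.45 for *cyp-34A7*, 0.59 for *cyp-34A10* and 0.73 for *cyp-34A9*, beside a median of 0.98 over all tested genes. It was 0.98 for *cyp-34A2* and 1.01 for *cyp-34A5*. The same order was found in 16 of the 16 sperm marker genes and in 16 of the 41 other tested P450 genes. It was seen in 3 of 3 tested cyp-14A genes and in 1 of 6 tested cyp-35 genes. JM03 replicate 3 was the lowest JM03 library in 28 of the 41 other tested P450 genes, including 3 of 3 in cyp-14A and 5 of 6 in cyp-35. Being lowest in that library was therefore not particular to the cyp-34A genes. What the members and the sperm markers have in common in these libraries was not tested.

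The genes with the most similar profiles were sought by the root mean square difference of log2(TPM + 1) over the 6 libraries, each profile centred on its own mean. For *cyp-34A9* the nearest of the tested genes were E02C12.10, *stdh-2*, K03D3.2, R05D8.9 and W02D9.7, with differences of 0.208 to 0.29. E02C12.10, also on chromosome V, had 0.29, 0.63 and 0.82 TPM in controls and 5.87, 6.74 and 3.51 TPM in JM03, with control replicate 3 the highest control and JM03 replicate 3 the lowest treated library, as in *cyp-34A9*. *stdh-2*, named as a steroid dehydrogenase family gene, had 0.527 ± 0.212 TPM in controls and 3.37 ± 1.01 TPM in JM03 (SD, n = 3 each). W02D9.7 was close in level too, at 25.2 ± 9.40 and 84.2 ± 6.10 TPM. Controls of E02C12.10, *stdh-2* and R05D8.9 stayed below 1 TPM, so these genes passed the filter through JM03 alone. The added 1 shrinks differences between values this low, so their likeness to *cyp-34A9* holds on that scale only.

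For *cyp-34A10* the nearest profiles were those of *dhs-23*, a short-chain dehydrogenase gene, the P450 genes *cyp-14A2* and *cyp-35A3*, F38C2.1 and *gba-2*, with differences of 0.278, 0.283, 0.334, 0.417 and 0.544. *cyp-14A2* lies on the X chromosome. Like *cyp-34A10*, the genes *dhs-23*, *cyp-14A2*, *cyp-35A3* and F38C2.1 had controls below 1 TPM and passed the filter through JM03 alone. *gba-2* also needed JM03 libraries to pass. *gba-2*, on chromosome II and related to glucosylceramidases, had 1.49, 1.18 and 0.26 TPM in controls and 22.04, 19.15 and 8.09 TPM in JM03. The tandem neighbour *cyp-34A9* was at 1.09 from *cyp-34A10*, which ranked it 31 in likeness to *cyp-34A10*, ahead of *cyp-34A7* at rank 166 and the other tested members. In likeness to *cyp-34A9* the same distance ranked *cyp-34A10* only 7821, behind the other 5 tested members, whose ranks ran from 92 for *cyp-34A7* to 1214 for *cyp-34A5*. The profiles were centred but not scaled, so the distance depends largely on the size of the group difference. Both *cyp-34A9* and *cyp-34A10* were higher in JM03, with log2 differences of 1.93 and 3.98 and the same order of JM03 libraries. These profiles are made of 3 control and 3 JM03 values and so carry the group difference that the members were chosen with.

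Among the other 72 P450 genes, 41 were tested. Of these, 4 were called higher, namely *cyp-14A3*, *cyp-14A2*, *cyp-35A3* and *cyp-35A5*, and none lower (limma, Benjamini-Hochberg adjusted p below 0.05). Of all tested genes, 0.0929% were called higher and 0.132% in either direction. Of the called genes, *cyp-14A2*, *cyp-35A3* and *cyp-35A5* had at most 0.38, 0.42 and 0.22 TPM in controls. They passed the filter through their JM03 values alone, so a difference was built into their passing. *cyp-14A3*, at 1.54, 0.77 and 0.41 TPM in controls, also needed JM03 libraries to pass. The median log2 difference of the 41 tested genes was 0.63, with 40 of 41 positive. Without control replicate 3 the median was 0.38, with 34 positive and 3 called higher, where 0.0774% of all tested genes were. Leaving out control replicate 2, JM03 replicate 1 or JM03 replicate 2 instead gave 1 called. In the cyp-14A subfamily 3 of 5 genes were tested, with log2 differences from 0.64 to 5.30. In the cyp-35 subfamilies 6 of 11 were tested, from 1.53 to 3.43. The 32 tested P450 genes outside these subfamilies ran from -0.003 to 1.25, with a median of 0.53 and none called. Of these 32, 3 had an unadjusted p below 0.05 (limma), beside 1517 of all 12912 tested genes. Differences between the subfamilies were not tested.

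**Figure D4:**
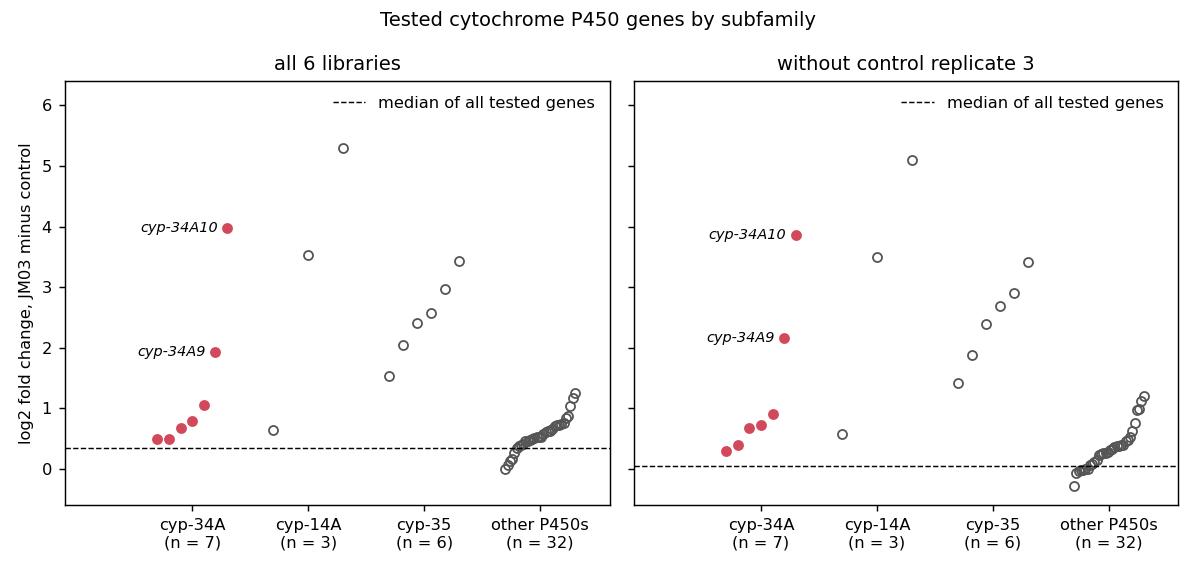
Log2 difference, JM03 minus control, of every tested P450 gene by subfamily with all 6 libraries and without control replicate 3; the dashed line is the median of all 12912 tested genes. *cyp-34A10* and *cyp-34A9* have log2 differences of 3.98 and 1.93 with all libraries, and the other 5 tested cyp-34A genes 0.49 to 1.06.

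The electron donors of the P450s were read from a short list. *emb-8*, the P450 reductase gene, had 89.83, 75.90 and 24.45 TPM in controls and 92.87, 97.09 and 91.17 TPM in JM03. Control replicate 3 was far below the rest, and the log2 difference was 0.75 with it and 0.18 without it. The cytochrome b5 genes differed from each other: *cytb-5.1* had 76.50, 50.55 and 61.50 TPM in controls and 133.40, 118.76 and 124.29 TPM in JM03, with no overlap, and *cytb-5.2* had 151.4 to 274.3 TPM in controls and 205.1 to 214.2 TPM in JM03. None of the 3 was called, and 1, *cytb-5.1*, had an unadjusted p below 0.05 (0.00678, limma, log2 difference 1.00). Of all 12912 tested genes, 1517 had one below 0.05.

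A list of 20 transcription factors and cofactors of the worm's foreign compound and lipid responses held 19 tested genes. None was called and none had an unadjusted p below 0.05 (limma). Their median log2 difference was 0.60 with all libraries and 0.14 without control replicate 3, the lowest control in 16 of the 19. The 3 of smallest p were the nuclear hormone receptor genes *nhr-28* and *nhr-68* and the intestinal GATA factor gene *elt-2*, with log2 differences of 0.90, 0.87 and 0.60. *ahr-1*, the aryl hydrocarbon receptor gene, did not pass the filter.

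Marker genes of tissues were summed to show what else differed between the libraries. All 20 intestine markers were above 0 in at least 1 library, and they summed to 4082 to 8406 TPM in controls and 6801 to 9000 TPM in JM03, with none called. The 16 sperm markers, all above 0, summed to 2250 to 5317 TPM in controls and 827 to 1551 TPM in JM03, and the 10 oocyte markers to 3050 to 5639 and 5947 to 7006 TPM. Muscle markers summed to 273 to 778 and 631 to 1277 TPM, epidermis markers to 93.8 to 376.6 and 282 to 852 TPM, and neuron markers to 246 to 375 and 404 to 428 TPM. No marker of these lists was called (limma). An unadjusted p below 0.05 was found in 15 of 16 sperm markers, 2 of 18 tested intestine markers and 1 of 10 oocyte markers. It was found in 1517 of all 12912 tested genes. The part of tissue makeup in the cyp-34A values was not tested.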

How the data were processed

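The authors deposited 1 table of TPM values at 2 decimals for 46778 genes in 6 libraries. The unit was read from the values, as columns sum to 997816 to 998884. Per the submitters' processing notes, fastp, HISAT and RSEM were used with build WBcel235; their versions and settings, and the use of strand, were not stated there. TPM keeps no read depth, so no counting interval is given. Of the rows, 11 symbols turned into dates and 210 blanks were looked up by gene ID, and 46603 rows matched the Ensembl 115 annotation.

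Genes reaching 1 TPM in 3 or more libraries, 12912 in all, were compared on log2(TPM + 1) with limma 3.58.1 (R 4.3.3; mean-dependent, robust prior, no block) and Benjamini-Hochberg adjustment over all of them. The limma step was tested on simulated data with normal noise, no deviant library and spreads held at or below the median spread of the genes. That setting is easier than these data, so it does not bear on the calls given here. The cyp-34A genes and all lists were chosen with earlier results of these data known. Named besides the members are called P450s, the listed partner genes, list genes of smallest p, flanking genes and the 5 nearest profiles. Alternatives were quantile normalization, rescaled protein-coding genes, no filter, 5 TPM, a pseudocount of 0.1, a non-robust prior, a replicate block and each library left out. Figures used matplotlib 3.10.9.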

Additional observations from a re-analysis of the deposited data

How the results depend on the processing

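The 7 tested cyp-34A genes kept a positive log2 difference in all 88 values computed under the alternatives, and 82 of these lay within 1 SD of replicates of the reported value. The exceptions were *cyp-34A4* and *cyp-34A8* with quantile normalization (0.30 and 0.47) and *cyp-34A5*, *cyp-34A7*, *cyp-34A8* and *cyp-34A10* with a pseudocount of 0.1 (0.93, 2.21, 0.90 and 5.97), which weights low values more by its construction. Where they exist, values with no filter, at 5 TPM, with a non-robust prior or with a replicate block equal the reported ones by construction. JM03 lay above all controls in these 7 genes, so leaving out a library or lowering the pseudocount could not change a sign. The agreement was thus in part fixed in advance. *cyp-34A1* and *cyp-34A6* had a value only with no filter (0.09 and -0.08), and *cyp-34A5*, *cyp-34A7* and *cyp-34A8* had none at 5 TPM. With the replicate number as a replicate block, 0 genes were called in all, 0 other P450s and 0 cyp-34A genes. The correlations of deviations were -0.02, 0.079 and -0.146 for same-numbered libraries and -0.278 to 0.291 for the others. With 3 libraries per group these values cannot show whether the numbers pair the samples, and the labels do not say. Leaving out a single library gave 5 to 17 genes called, 1 to 4 other P450s and 0 to 2 cyp-34A genes, the 0 arising without control replicate 2 and without JM03 replicate 1. The cause was not tested. The remaining settings gave 13 to 17 genes and 3 or 4 other P450s, and each called *cyp-34A10*; as the genes were chosen with this contrast known, these calls are no evidence on them. No partner or regulator gene was called under any alternative. What depth limits is unknown with TPM; values of a few hundredths of a TPM carry 1 significant digit.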
